A study of Equus caballus with 93 samples.

Results

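The week 4 comparison set cells from the synovial fluid of horses given a polyacrylamide hydrogel against cells from horses given saline, 2 weeks after the injection. It used every week 4 library of the series, 14 of 93 libraries, of which 7 came from horses given the gel (iPAAG) and 7 from horses given saline (Control). All 16 horses of the study were mares or geldings 2 to 5 years old, and each had an osteochondral fragment created surgically in one middle carpal joint, a model of traumatic osteoarthritis. The operated joint received 2 mL of 2.5% injectable polyacrylamide hydrogel or 2 mL of phosphate buffered saline at week 2, and horses of both arms were exercised from week 2 to week 10. The arms were 8 horses each, assigned at random per the labels' protocols, and iPAAG horse 3 and Control horse 11 had no week 4 library here. Each library was 1 horse, so the spread between libraries of an arm includes the spread between animals. Surgery and exercise were shared by both arms, and fluid was drawn from the same joints every 2 weeks. Whether fluid collection or injection came first at week 2 is not given in the labels.

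Synovial fluid is the lubricant of the joint, and the cells free in it are mainly leukocytes, with some cells shed from the synovial lining. In an injured joint the number and kind of these cells change as leukocytes enter from the blood. Polyacrylamide hydrogel is a soft, non-degradable polymer that becomes integrated into the synovial membrane. The deposited table names genes by Ensembl identifier and pairs none with a symbol, and 0 identifiers could be paired with a symbol in the reference table used here. The labelled cell source could therefore not be checked against marker genes, and the results are given by read level, by library and for 4 identifiers.

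The 4 iPAAG libraries of horses 5, 6, 7 and 14 stood apart from the other 10 libraries of that week. Their values were narrow: the SD of log2 CPM (reads of a gene relative to a scaled library size, on a log2 scale) over the 15838 genes of a library was 1.27 in horse 5, 1.35 in horse 6, 1.29 in horse 7 and 1.36 in horse 14. It was 3.71 in iPAAG horse 8, 3.58 in horse 12 and 3.75 in horse 17. The Control values were 3.62 in horse 1, 3.55 in horse 2, 3.62 in horse 9, 3.65 in horse 10, 2.94 in horse 13, 3.38 in horse 15 and 3.54 in horse 16. Libraries with an SD below 2 are called narrow here and the others wide, so that the iPAAG arm had 4 narrow and 3 wide libraries and the Control arm had 7 wide ones. No week 4 library lay near that limit. Over all 93 libraries the nearest values on either side of it were 1.90 and 2.19, and 23 libraries were narrow, 17 of them iPAAG and 6 Control.

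**Figure D1:**
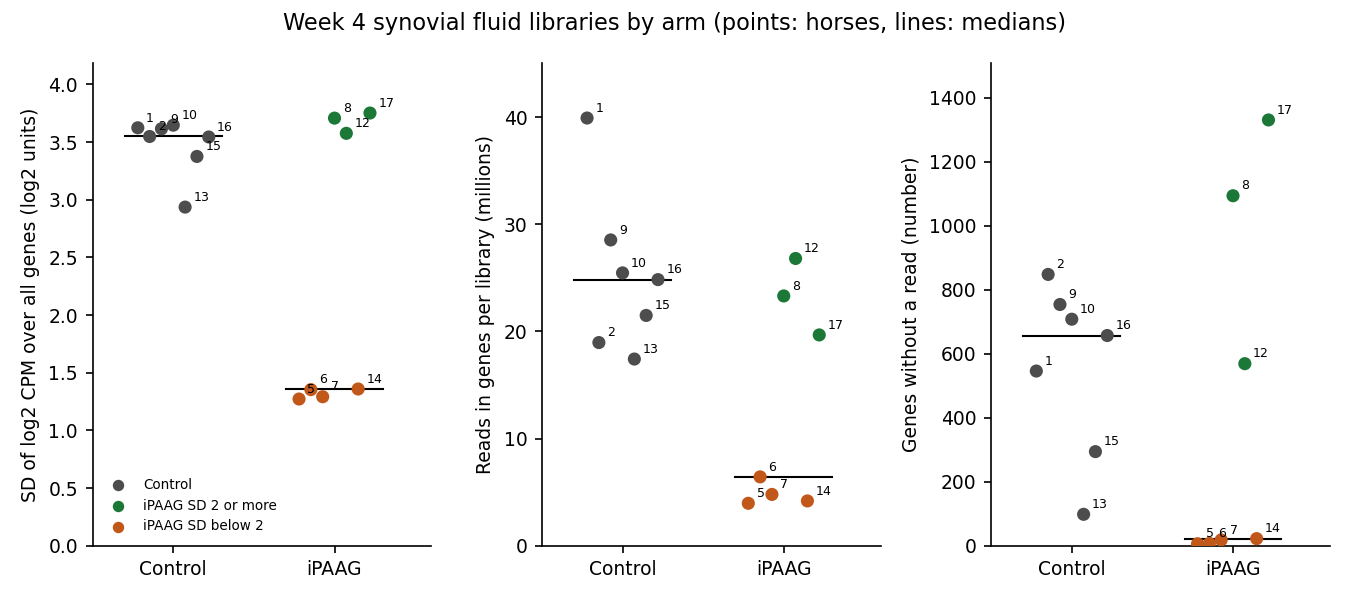
Each point is the week 4 library of 1 horse, numbered by horse, in the Control arm (grey) and the iPAAG arm (green for wide libraries, orange for narrow ones), and black lines are arm medians. The panels show the SD of log2 CPM over all genes, the reads in genes and the number of genes without a read; the 4 narrow iPAAG libraries had the lowest value of each, between 1.27 and 1.36 for the SD.

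The narrow libraries also held fewer reads and spread them over more genes. The reads in genes numbered 3954618, 6421670, 4782887 and 4175682 in iPAAG horses 5, 6, 7 and 14, and 23308769, 26806187 and 19670480 in horses 8, 12 and 17. In Control horses they ran from 17419105 to 39916655, with a median of 24833298. Although they were the shallowest, the narrow libraries left only 6 to 22 genes without a read, against 98 to 848 in the Control libraries and 569 to 1331 in the wide iPAAG libraries. The 20 most abundant genes took 2.11% to 6.20% of the reads in the narrow libraries, at least 14.3% in the wide iPAAG libraries and 13.1% to 18.2% in the Control libraries. The scaled library size of the deposited values was 1.92 to 2.45 times the reads in genes in the narrow libraries, 0.85 to 0.98 times in the wide iPAAG libraries and 0.70 to 0.84 times in the Control libraries, so a given share of reads stands at a lower log2 CPM in a narrow library.

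As arms of 7, the libraries passed the adjusted threshold in none of 5 measures. In two-sided exact permutation tests, reads gave p = 0.0286 and the share of the top 20 genes gave p = 0.0338, and both had an adjusted p of 0.0845 over the 5 tests. The mean SD was 2.33 ± 1.26 (SD, n = 7) in the iPAAG arm and 3.47 ± 0.25 (SD, n = 7) in the Control arm, with an exact permutation p of 0.0682 and an adjusted p of 0.114. Among wide libraries alone the means of reads were 23261812 for iPAAG and 25230315 for Control (exact permutation p = 0.817, n = 3 and 7). The wide iPAAG libraries had 998 ± 390 genes without a read (SD, n = 3) and the Control libraries 558 ± 270 (SD, n = 7), with an exact permutation p of 0.0833 and an adjusted p of 0.139.

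The same horse could give a narrow library at one week and a wide one at another. The SD of iPAAG horse 5 went from 3.69 (week 2) to 1.27 (week 4) and back to 3.31 (week 6). Horses 6 and 7 had wide libraries at week 2, with SDs of 3.08 and 3.97, and narrow ones at weeks 4 and 6. Horse 14 was narrow at week 2, at 1.68, and wide at week 6, at 3.27. In iPAAG horses 8 and 17 the order was the reverse, with wide week 4 libraries followed by narrow week 6 libraries of 1.34 and 1.64. Control horse 10 had a narrow week 2 library, at 1.34, before its wide week 4 library. Some horses were narrow repeatedly: horse 14 was so at weeks 0, 2 and 4, with an SD of 1.65 before surgery, and horses 6 and 7 were so at weeks 4, 6 and 10. Each of the 4 horses that were narrow at week 4 also gave a wide library at another week.

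Across genes, the narrow libraries resembled each other and not the rest. As a description over 15838 genes, the median Pearson r was 0.928 between 2 narrow iPAAG libraries, 0.927 between 2 Control libraries and 0.915 between a wide iPAAG and a Control library. It was 0.325 between a narrow iPAAG and a Control library and 0.318 between a narrow and a wide library of the same arm. In the median narrow library the 5th and 95th percentiles of reads per gene were 41 and 709. They were 1 and 5800 in the median Control library and 0 and 4955 in the median wide iPAAG library.

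**Figure D2:**
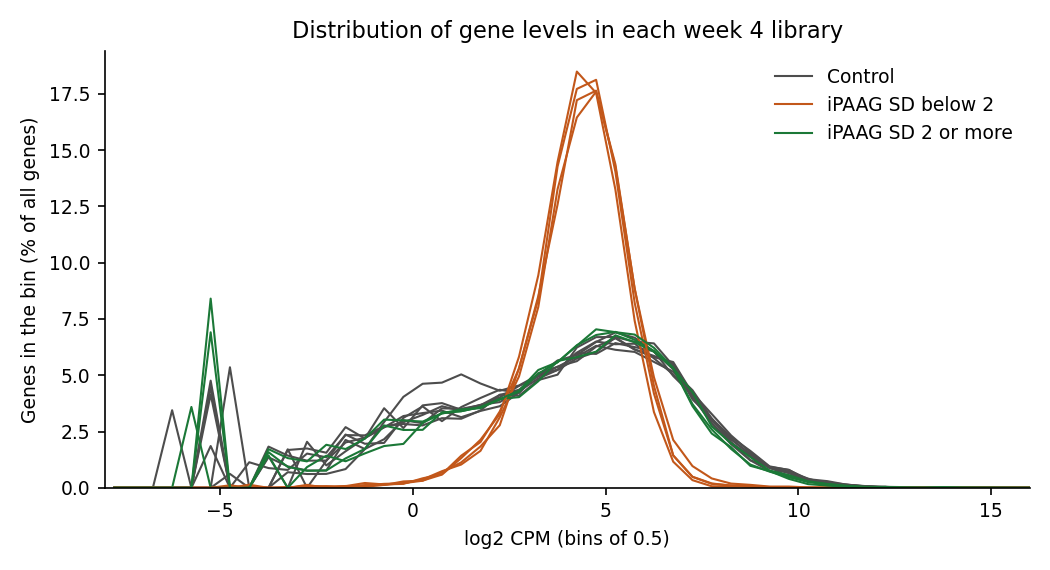
The distribution over 15838 genes of log2 CPM (x axis, log2 units) in each week 4 library, with 1 line per library coloured as Control, wide iPAAG or narrow iPAAG. The 4 narrow iPAAG libraries have a single tall peak and SDs of 1.27 to 1.36, with 0.60% to 0.89% of genes below 0 and 0.55% to 1.88% above 7 log2 CPM, whereas in the other 10 libraries 12.1% to 20.3% of genes lie below 0 and 10.4% to 14.1% above 7.

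With all 14 libraries, most genes differed between arms. In a limma fit over all 93 libraries with the horse as a random block, 8589 of 15838 genes differed at week 4 at a Benjamini-Hochberg adjusted p under 0.05, which is 54.2% of those tested. Of these, 3426 (21.6%) were higher in iPAAG and 5163 (32.6%) were lower. The higher genes were scarce in Control fluid, with a median Control level of 0.52 log2 CPM and a median difference of 2.36, and the lower genes were abundant there, with a median level of 6.52 and a median difference of -1.20. In these bulk libraries, fewer cells of a type and less RNA per cell cannot be told apart. The count rested on the narrow libraries, and it was 16 when all of them were left out. Single horses were also left out, each with its libraries of all weeks. The count was then 5637 without iPAAG horse 7, narrow at week 4, and 10208 without iPAAG horse 8, wide at week 4. A term for library SD in the same fit left 2435 genes (15.4%), 359 higher (2.27%) and 2076 lower (13.1%). The 14 week 4 libraries fitted alone called 5904 genes (37.3%), and 2 (0.0126%) with the term for library SD.

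The direction of a gene followed its level, and did so in the narrow libraries. These were chosen by their small spread over the same genes, which largely sets such a pattern. The values by level are therefore a description. Genes were grouped by their mean in Control horses at week 0, a time that entered no week 4 value. For the 1405 genes below -2 log2 CPM the median difference between the narrow iPAAG libraries and the Control libraries was 6.97, and for the 1776 genes at 7 or more it was -2.59. The wide iPAAG libraries gave medians of -1.01 and -0.20 for the same groups. In the narrow libraries the lowest and the highest of the 5 groups had median levels of only 4.32 and 5.56 log2 CPM, against -2.64 and 7.94 in the Control libraries and -3.77 and 7.75 in the wide iPAAG libraries.

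The calls of the fit with all libraries split along the same levels. This too is a description, since the small spread of the narrow libraries largely sets such a split. Of the 1405 scarcest genes 688 were called higher and 0 lower, and of the 1776 most abundant genes 3 were called higher and 1626 lower. In the middle group of 3969 genes, between 1 and 4 log2 CPM, 1408 were higher and 236 lower. In the scarcest genes the narrow iPAAG libraries lay above the Control level and the wide ones below it.

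**Figure D3:**
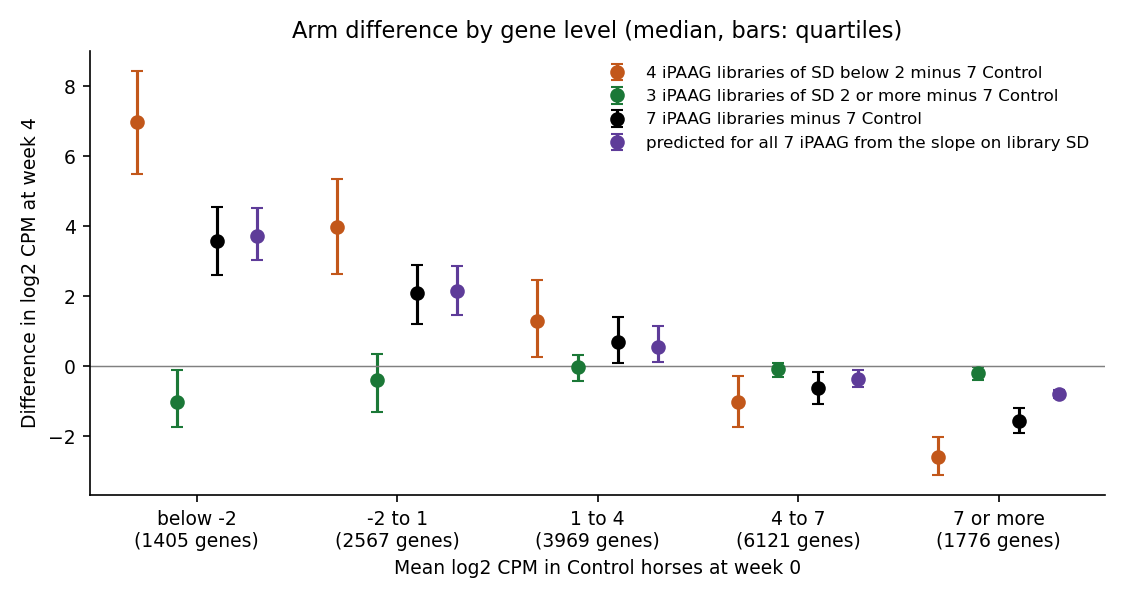
Median difference from Control in log2 CPM (y axis) for 5 groups of genes by mean level in Control horses at week 0 (x axis), with bars for the quartiles over genes. Narrow iPAAG libraries (orange) run from 6.97 in the scarcest group to -2.59 in the most abundant one, wide iPAAG libraries (green) from -1.01 to -0.20, and the values for all 7 iPAAG libraries (black) lie near those predicted from library SD (purple) except in the most abundant genes.

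The share of the difference that follows library SD was estimated with slopes taken from no week 4 library. For each gene a slope of log2 CPM on library SD was taken within the arm and week groups of the other 79 libraries, and multiplied by the difference in mean SD between the arms at week 4, which was -1.14. The predicted and observed differences had a Pearson r of 0.916 across 15838 genes within these libraries, and genes are no independent replicates. The prediction accounted for 83.1% of the sum of squared differences. Library SD is computed from the same gene values, so part of this r and share is built in. Both are a description. The SD of the differences over genes was 1.76 as observed, 1.50 as predicted and 0.71 in the remainder.

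Differences of at least 1 log2 unit were seen for 8514 genes (53.8%) as observed and for 2502 (15.8%) in the remainder, 756 of them upward and 1746 downward. The remainder was largest in abundant genes: its median was -0.76 in the group at 7 or more log2 CPM, where the observed median was -1.55 and the predicted one -0.80. In the 4 other groups its median lay between -0.27 and 0.09. A straight slope on SD was assumed, and its accuracy in the range of the narrow libraries was not tested.

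Narrow libraries of the Control arm, drawn at other weeks, departed from wide ones in much the same genes. The difference of the 4 narrow from the 3 wide iPAAG libraries at week 4 was set beside that of the 6 narrow from the 26 wide Control libraries of the weeks holding them, and the comparisons share no library. Across 15838 genes the Pearson r was 0.963, and 94.5% of genes had the same sign. At least 1 log2 unit higher in narrow libraries were 6418 of 15838 genes in the gel arm and 5804 of 15838 in the saline arm. Both lists held 5599 of these, 87.2% of the first and 96.5% of the second. At least 1 unit lower were 4861 and 2914 of 15838 genes, with 2871 in both lists, 59.1% of the first and 98.5% of the second. Lists this large share many genes in any case. Both sets of narrow libraries were chosen by low SD, which sets much of the shared direction, so the overlaps are a description.

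**Figure D4:**
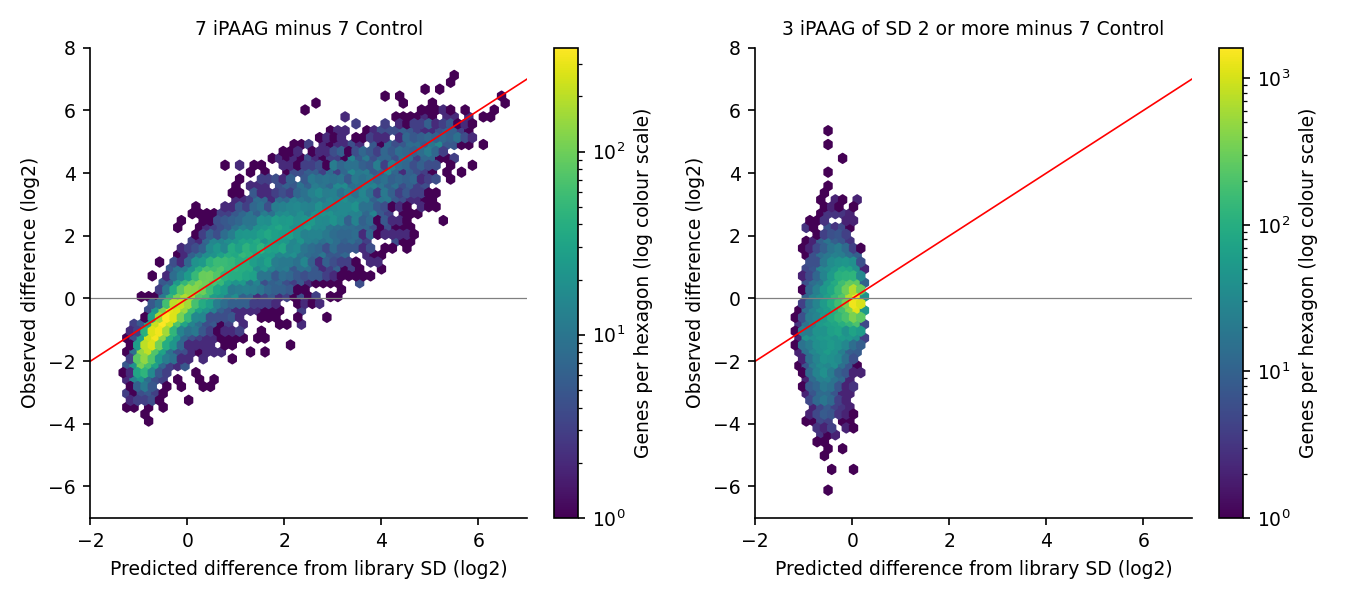
Observed iPAAG minus Control difference in log2 CPM at week 4 (y axis) against the difference predicted from library SD (x axis), as hexagons coloured by the number of genes on a log scale, for all 14 libraries and for the 10 wide libraries; red lines mark equality. With all libraries the prediction accounted for 83.1% of the sum of squares (r = 0.916), and with wide libraries for 14.4% (r = 0.305).

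Among wide libraries, 16 of 15838 genes differed between arms at week 4, 0.101% of those tested. All 16 were lower in the 3 iPAAG libraries, of horses 8, 12 and 17, than in the 7 Control libraries. At an unadjusted p under 0.05 there were 1888 genes in the same limma fit, 331 higher and 1557 lower. Over all genes the median difference was -0.13, with 61.9% of genes lower in iPAAG, so the direction of the 16 was also that of most genes. Under quantile normalization the median over all genes was 0.02 and 2 genes were called. The adjusted p nearest to the threshold was 0.0492 among called genes and 0.0531 among the others.

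The 16 calls depended on single horses, each left out with its wide libraries of all weeks. The count was 0 without iPAAG horse 17, 9 without horse 8 and 160 without horse 12. It was 36 without Control horse 1, 42 without Control horse 10, 5 without Control horse 2, 8 without Control horse 9 and 10 without Control horse 15. The 10 wide libraries fitted alone called 0 genes, with 1576 at an unadjusted p under 0.05. With a term for library SD the count was 13 (0.0821%), and the mean SD of the wide iPAAG libraries was above that of the Control libraries by 0.21.

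Library SD predicted little of what was left among wide libraries. The prediction accounted for 14.4% of the sum of squares, and its Pearson r with the observed difference was 0.305 across genes. The SD of the differences over genes was 0.82 as observed and 0.78 in the remainder, and 2407 genes (15.2%) had a remainder of at least 1 log2 unit, against 2565 (16.2%) as observed. With 3 libraries in the gel arm, the spread between horses was large beside most of these differences. For the 16 called genes the part predicted from SD lay between -0.43 and 0.17.

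The 16 genes ranged from scarce to abundant, with Control means of -0.23 to 9.74 log2 CPM at week 4. Their differences ranged from -5.42 to -0.66 with a median of -1.55, and the standard errors from 0.15 to 1.00. By the Control mean at week 0, which entered no week 4 value, 13 genes were at 1 log2 CPM or more, with a median difference of -1.17, and 3 were below it, with a median of -3.76. Among all 16, 1 gene had no read in any of the 3 wide iPAAG libraries and 3 had none in 2 of them, and the smallest Control value for any of the 16 was 5 reads.

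By library, the iPAAG value was below all 7 Control values for 15 of the 16 genes in horse 8, 12 in horse 12 and 16 in horse 17, and over all genes for 23.6%, 10.2% and 21.7% in these libraries. The wide iPAAG libraries chose the 16 genes, so these counts are a description. For 11 genes all 3 wide iPAAG libraries lay below all Controls, as they did for 2.55% of all genes. The narrow libraries did not enter that choice, but the 7 Control libraries did. The narrow values lay below all Controls for 8 or 9 of the 16 genes in each of horses 5, 6, 7 and 14, against 36.7% to 39.5% of all genes. All 4 narrow libraries were below all Controls for 8 of the genes, against 34.2% of all genes, and above them for 3, against 38.1%. Those 8 genes had Control means of 3.60 to 9.74 log2 CPM. Narrow libraries mostly lay below Control in abundant genes, with median differences of -1.01 at week 0 levels of 4 to 7 and -2.59 at 7 or more. The shares over all genes are thus no matched baseline, and these counts are a description too. In the fit with all libraries, which holds the same wide libraries, 9 of the 16 genes were called lower, against 32.6% of all genes, and 0 higher.

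At the other weeks these 16 genes did not differ between arms past the adjusted threshold in wide libraries. On a log2 scale their median difference was -0.09 before surgery, -0.17 at week 2 and -0.06 at week 6, and later it was -0.33 (week 8) and 0.01 (week 10). Over all genes 0 were called at weeks 0, 2, 6 and 10 in the same limma fit, with 727, 3303, 988 and 284 at an unadjusted p under 0.05, and 822 genes (5.19%) were called at week 8, with 4126 at an unadjusted p under 0.05. At week 2 the difference was negative for 12 of the 16, against 45.1% of all genes, and 4 had an unadjusted p under 0.05. At week 8 it was negative for 14, against 60.3% of all genes, with 5 at an unadjusted p under 0.05. The genes were chosen for their week 4 difference, so a smaller value elsewhere is no result in itself. The same horses gave the libraries of each week, and the wide iPAAG libraries numbered 7, 7, 4, 6 and 2 at weeks 0, 2, 6, 8 and 10.

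With all libraries, arms that did not overlap more often had iPAAG lower. All 7 iPAAG values were below all 7 Control values for 238 genes (1.5%) and above them for 68 genes (0.429%). The 238 genes had a median Control level of 6.75 log2 CPM, and their median difference from Control was -2.27 in the narrow iPAAG libraries and -0.47 in the wide ones, where it ranged from -2.21 to -0.14. These week 4 values chose the genes and are a description. The arms of wide libraries differed in these genes by medians of -0.05 at week 0 and -0.18 at week 2, and then of 0.02 and -0.18 at weeks 6 and 8.

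The 68 genes above all Controls were less abundant, with a median Control level of 1.47 log2 CPM. Their median difference was 2.35 in narrow libraries and 1.10 in wide ones. These too are the values that chose the genes. Taken alone, the 3 wide iPAAG libraries were below all Controls for 404 genes (2.55%) and above them for 126 (0.796%). The 4 narrow libraries were below all Controls for 5414 genes (34.2%) and above them for 6042 (38.1%), so that among the narrow libraries the higher genes were the more numerous.

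Expressed genes are here those with a mean of at least 1 log2 CPM over the week 4 libraries of a fit. Among them, the largest positive iPAAG minus Control difference with all libraries was that of ENSECAG00000036844. Its log2 CPM in Control horses 1, 2, 9, 10, 13, 15 and 16 was -2.62, -4.73, 0.40, -1.10, 1.95, -0.79 and -0.18, from 0 to 54 reads. In the narrow iPAAG libraries of horses 5, 6, 7 and 14 it was 7.27, 6.72, 7.67 and 7.56, from 1301 to 2392 reads, and in the wide ones of horses 8, 12 and 17 it was 1.36, 0.55 and 0.83, from 33 to 53 reads. It passed the limit on the mean, which was 1.78 over 14 libraries and -0.43 over the 10 wide ones, through the narrow libraries in which it was high. The narrow libraries were far above all others, while the wide iPAAG values lay within the Control range. The fitted difference was 5.66 (SE 1.73, limma adjusted p = 0.00608), and the part predicted from library SD was 4.55. With a term for library SD it was 1.36 (limma adjusted p = 0.146), and in wide libraries 1.99 (SE 1.49, limma adjusted p = 0.631).

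The largest negative iPAAG minus Control difference among expressed genes in the same fit was that of ENSECAG00000007242. Its log2 CPM was 8.23, 9.50, 9.49, 7.47, 8.58, 8.61 and 8.75 in the Control horses in the same order. It was 3.13, 2.95, 2.29 and 3.95 in the narrow iPAAG libraries, from 57 to 142 reads, and 6.81, 8.25 and 5.55 in the wide ones. The narrow values lay below all others, and of the wide iPAAG values only that of horse 12 reached the Control range. The fitted difference was -3.95 (SE 0.69, limma adjusted p = 0.000125), of which -0.85 was predicted from library SD and -3.11 was left. With a term for library SD the fitted difference was -2.90 (limma adjusted p = 0.00199). With that term in the 14 libraries alone it was -2.23 (limma adjusted p = 0.130). In wide libraries the difference was -1.74 (SE 0.64, limma adjusted p = 0.252, two-sided exact permutation p = 0.05, n = 3 and 7).

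The level of ENSECAG00000007242 also moved over the weeks in wide libraries of both arms. At weeks 0, 2 and 4 the Control means were 5.55 ± 1.14 (SD, n = 8), 7.42 ± 1.01 (SD, n = 7) and 8.66 ± 0.71 (SD, n = 7). The iPAAG means were 4.89 ± 0.79 (SD, n = 7), 5.87 ± 0.82 (SD, n = 7) and 6.87 ± 1.35 (SD, n = 3) at the same weeks, and 8.78 ± 0.48 (SD, n = 4) at week 6, when the Control mean was 7.31 ± 0.81 (SD, n = 6). At week 8 the means were alike, at 7.94 ± 0.54 (SD, n = 6) for iPAAG and 7.94 ± 0.89 (SD, n = 7) for Control, and at week 10 they were 4.32 ± 0.38 (SD, n = 2) and 6.05 ± 1.48 (SD, n = 6). The iPAAG mean was thus the lower one at weeks 0, 2, 4 and 10 and the higher one at week 6, and the week 10 difference of -1.79 was near that of week 4. At week 2 the difference between arms was already -1.53 in wide libraries (limma adjusted p = 0.155).

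Among genes with a mean of at least 1 log2 CPM over the 10 wide libraries, the largest negative difference in their fit was that of ENSECAG00000038911. Its mean was 1.01, reached through the Control libraries. A gene further below Control can miss the limit for that very reason. An example, chosen after its values were seen, is a gene with a Control mean of 2.13 and a difference of -4.64. The log2 CPM of ENSECAG00000038911 in the Control horses, in the order given above, was 2.64, 1.96, 2.51, 0.26, 1.95, 1.56 and 1.38. In the wide iPAAG libraries of horses 8, 12 and 17 it was -1.92, -0.09 and -0.15, from 5, 21 and 17 reads, and in the narrow ones it was 2.06, 2.27, 1.92 and 1.08. The wide iPAAG values lay below all Control values, and the narrow ones lay within the Control range. The difference in wide libraries was -2.39 (SE 0.52, limma adjusted p = 0.0297), and the two-sided exact permutation p of 0.0167 (n = 3 and 7) is the smallest this design can give. With all libraries it was -0.99 (limma adjusted p = 0.102), and -1.80 there with a term for library SD (limma adjusted p = 0.00586). With the 10 wide libraries fitted alone the limma adjusted p was 0.432. The call was lost in 12 of 22 alternatives, among them quantile normalization (limma adjusted p = 0.346), voom weights (0.226) and 5 added reads (0.0615). It was lost without Control horse 2, 9, 13 or 15 or iPAAG horse 8 or 17, with limma adjusted p between 0.0522 and 0.374, and with reads thinned to the depth of the shallowest library, where the difference was -1.30 (limma adjusted p = 0.488).

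In wide libraries ENSECAG00000038911 averaged 1.76 ± 0.97 (SD, n = 8) for saline and 1.67 ± 0.66 (SD, n = 7) for gel at week 0. At week 2 saline horses averaged 0.91 ± 0.51 (SD, n = 7) and gel horses -0.08 ± 0.76 (SD, n = 7), and at week 8 they were 1.20 ± 1.04 (SD, n = 7) and 0.11 ± 0.86 (SD, n = 6). At week 6 the means were 1.27 ± 0.35 (SD, n = 6) for saline and 0.17 ± 0.33 (SD, n = 4) for gel, and at week 10 they were 0.82 ± 0.43 (SD, n = 6) and 0.18 ± 0.77 (SD, n = 2). The arms had like means at week 0, and the iPAAG mean was the lower one at each later week. The limma adjusted p of the difference was 0.187 at week 2 and 0.0915 at week 8, above the threshold at both.

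No gene was called higher among wide libraries, and ENSECAG00000008379 had the smallest p of those with a positive iPAAG minus Control difference. Its log2 CPM was 5.44, 5.32, 5.07, 5.44, 5.45, 5.51 and 5.25 in the Control horses, 5.99, 5.70 and 6.03 in the wide iPAAG libraries and 5.23, 5.24, 5.00 and 5.17 in the narrow ones. The wide iPAAG values were above all Controls, and the narrow ones lay in the lower part of the Control range or below it. The difference in wide libraries was 0.55 (SE 0.14, limma adjusted p = 0.0701), and with all libraries it was 0.12 (limma adjusted p = 0.544). With all libraries and a term for library SD it was 0.47 (limma adjusted p = 0.00573). In wide libraries the gene stayed uncalled in 20 of 22 alternatives. It was called without iPAAG horse 12 (limma adjusted p = 0.0302) and with array weights (0.0394). The limma adjusted p was 0.374 without iPAAG horse 8 and 0.593 without horse 17. With the groups compared fitted alone it was 0.464, and 0.624 there with a term for library SD. At the other weeks the difference in wide libraries ran from -0.02 to 0.33, with limma adjusted p of 0.0595 or more.

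**Figure D5:**
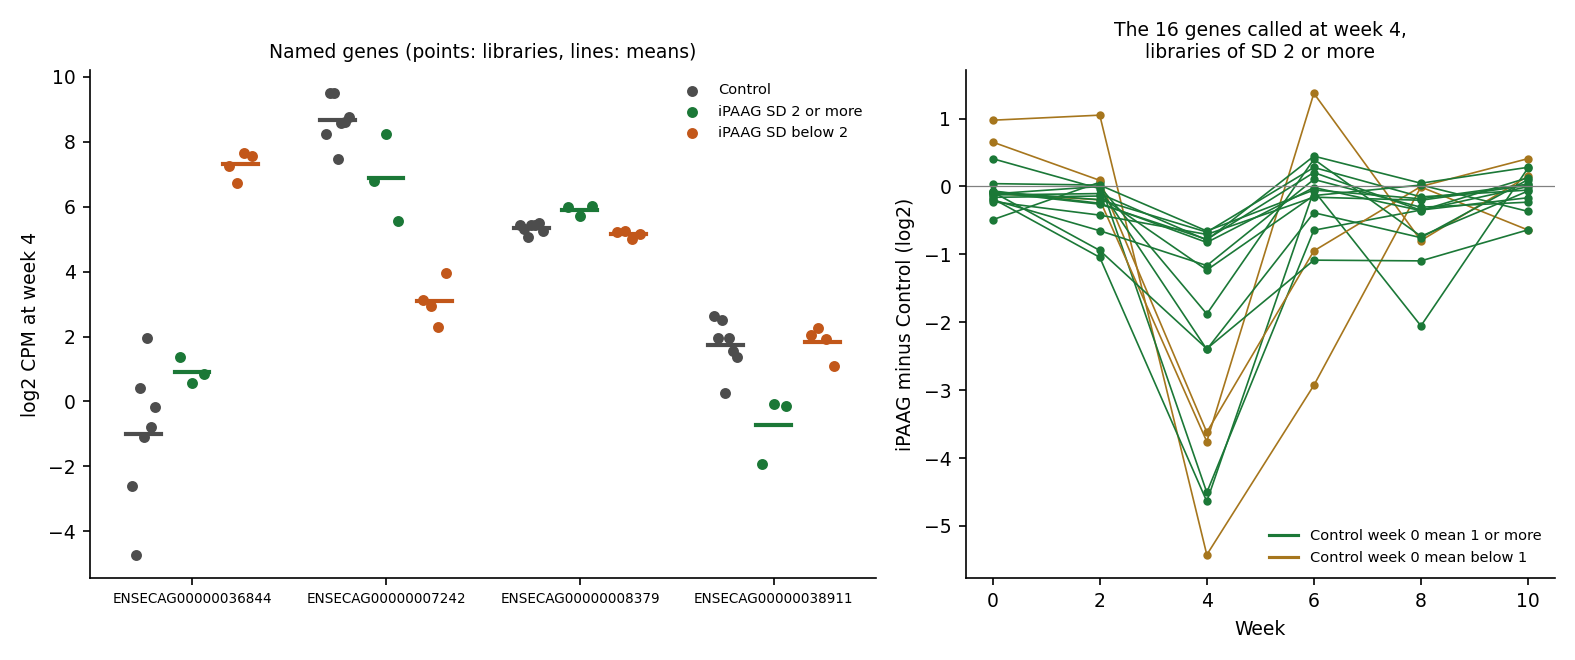
Left, log2 CPM (y axis) of the 4 named genes at week 4, 1 point per horse with lines for means, in Control, wide iPAAG and narrow iPAAG libraries: the narrow libraries are far from the Control values for ENSECAG00000036844 and ENSECAG00000007242, and the wide iPAAG libraries lie outside the Control range for ENSECAG00000008379 and ENSECAG00000038911. Right, the iPAAG minus Control difference in wide libraries (y axis, log2) by week (x axis) for the 16 genes called at week 4, 13 with a Control week 0 mean of 1 log2 CPM or more (green) and 3 below it (brown), which at week 4 ran from -5.42 to -0.66.

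Whether the arms moved apart between week 2 and week 4 was asked with the change in the arm difference. With all libraries it was past the threshold for 3633 genes (22.9%), 389 upward (2.46%) and 3244 downward (20.5%), and under quantile normalization for 1649 upward and 3288 downward. The narrow libraries entered that count: it was 0 without the libraries of iPAAG horse 5, 6 or 7 or of Control horse 10. These fits still held 4295 to 4989 genes at an unadjusted limma p under 0.05, against 6431 with all horses. Without iPAAG horse 14, narrow at weeks 2 and 4, the count was 4014. It was 2345 without the libraries of Control horse 16 and 5666 without those of iPAAG horse 12. The groups compared, fitted alone, called 0 genes, with 6217 at an unadjusted p under 0.05.

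In wide libraries the change was past the threshold for 2 genes (0.0126%), both downward and both among the 16, and 1187 had an unadjusted p under 0.05 in the same limma fit. Without iPAAG horse 8 or 17 or Control horse 15 the count was 0, without Control horse 2 or 9 it was 1, and without iPAAG horse 12 it was 9. The change was negative for all 16, with a median of -1.27, against 64.1% of genes and a median of -0.15 over all genes. In all 3 horses that had wide iPAAG libraries at week 4, 12 of the 16 fell, against 31.7% of all genes. Library SD itself rose from week 2 to week 4 in horse 12, from 2.39 to 3.58, and in horse 17, from 2.49 to 3.75. In horse 8 it was 3.67 and 3.71. The change in wide libraries is therefore not free of library SD. With a term for library SD its median over all genes was -0.05, and 1 gene was called. The change shares its week 4 libraries with the choice of the 16 genes and is given as a description.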

How the data were processed

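Synovial fluid cells were pelleted after hyaluronidase digestion, and their total RNA was sequenced with a strand-keeping kit for small inputs, per the labels' protocols. The authors deposited 1 table of log2 CPM for 15838 genes in 93 libraries, scaled by voom per its name. The submitters' processing notes name STAR 2.7.10b, the build EquCab3.0 and limma 3.62.2. Not given in the sources used here are the counter, the use of strand, the annotation and the gene filter, so genes that overlap or have near-identical copies are uncertain.

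Each value equals the log2 of reads plus 0.5 over a scaled library size, and all values (100%) gave whole reads within 0.05. Reads in genes per week 4 library ran from 3954618 to 39916655. Because the deposited unit is a log2 value, genes were tested with limma 3.58.1 in R 4.3.3 on log2 CPM: 12 arm and week means, the horse as a random block (within-horse correlation 0.039 over 93 libraries and 0.094 over the 70 of SD 2 or more), a mean-variance trend, and Benjamini-Hochberg adjustment over all genes with a threshold of 0.05. Single values were compared by exact permutation tests in Python 3.11.15 with scipy 1.17.1. No libraries of an arm at week 4 agreed within sampling noise.

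Named genes were, in each of the fits with all and with wide libraries, the largest higher and lower difference among called genes with a mean of at least 1 log2 CPM, or the smallest p where none was called. The choice of libraries, the SD limit of 2 and the rules were set with earlier results of these data known. Gene lists were not used because no identifier could be paired with a symbol. Alternatives were other normalizations, filters, weights, 5 added reads, thinned reads, library SD as a covariate, the groups alone, the block and horses left out. In the gene fits each horse with a week 4 library was left out with its libraries of all weeks. For library SD and the share that follows it, only its week 4 library was left out. Library SD as a covariate in the week 4 libraries alone was added after the data were seen.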

Additional observations from a re-analysis of the deposited data

Results flagged for a closer look

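The week 4 Control library of horse 13 lay far from the other 6 of its arm in 2 measures. Its SD of log2 CPM was 2.94, with the next library at 3.38, and at a common depth of 3954618 reads it had 15329 genes with a read, with the next library at 14611. Of 18 groups of values looked at in this way 2 had such a library, and chance gives about 1 in 20.

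The arm difference of ENSECAG00000007242 at week 4 was lower than that at week 2 by a tested change of -2.96 with all libraries (SE 0.93, limma adjusted p = 0.0242), and the change was -0.21 in wide libraries (limma adjusted p = 0.975). The arm difference itself changed between week 2 and week 4 for 3633 genes with all libraries and for 2 genes with wide ones, at a limma adjusted p under 0.05.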

How the results depend on the processing

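With all libraries the count of 8589 genes became 5493 with voom weights, 14224 with array weights and 2435 with library SD as a covariate. It was 2 with that covariate in the 14 libraries alone and 15 without libraries of SD below 3. Leaving out 1 horse, with its libraries of all weeks, gave 5637 to 10208. With wide libraries the count of 16 became 0 in the 10 libraries alone, 0 there with SD as a covariate and 2 under quantile normalization. It was 9 for genes with a mean of at least 1 log2 CPM, 1 with voom weights and 181 with array weights (20 higher). With thinned reads it was 6, and with 5 reads added 5. Leaving out 1 horse, with its wide libraries of all weeks, gave 0 to 160. No paired analysis was possible for the week 4 levels because each horse was in 1 arm only. For the change from week 2 the horse as a replicate block with fixed effects gave 4316 genes, and no replicate block gave 3134, against 3633 with the random block. That count became 0 in the groups alone, 2371 with voom weights, 13384 with array weights, 2220 with SD as a covariate and 0 without libraries of SD below 3. Leaving out 1 horse gave 0 to 5666. In wide libraries the change count of 2 stayed at 2 with the fixed replicate block and became 1 with no replicate block and 1 in the groups alone. It was 0 under quantile normalization, 1 for genes with a mean of at least 1, 0 with voom weights and 1 with SD as a covariate. Leaving out 1 horse gave 0 to 9. The arm difference in library SD was -0.75 over genes with a mean of at least 1 (exact permutation p = 0.0268) and ran from -1.38 to -0.96 without 1 library. The share of squared differences that follows library SD was 72.9% over those genes, and 78.1% to 87.5% without 1 library. The cause of these shifts was not tested. Median centring moved the median difference over all genes at week 4 from 0.04 to -0.22 and quantile normalization moved it to -0.27; 2835 genes were then higher and 5916 lower, and 3865 higher and 5297 lower. No named gene reversed. The 3 wide iPAAG libraries limit what the comparison without narrow libraries can show, and a gene not called there is not shown to be alike in both arms.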
